A study of Homo sapiens with 6 samples.

Results

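The genes described here carry the names of proteins of the mitochondrial ribosome. They are all gene names for cell RNA on the array that begin with MRPL or MRPS followed by a number, a rule that uses no measured value. This gave 78 of 36328 gene names. A gene with several probes was read by its brightest probe, the one with the highest mean signal over the 6 arrays. Protein-coding genes made up 76 of the names, with 47 MRPL genes and 29 MRPS genes, called large-subunit and small-subunit genes by their names. The names are not exact. The MRPS18A and MRPS30 proteins sit in the large subunit, and MRPS36, now named KGD4, is known as a subunit of the 2-oxoglutarate dehydrogenase complex. The other 2 names, the antisense RNA MRPL23-AS1 and the pseudogene MRPL42P5, are kept apart.

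Mitochondria translate the few proteins of their own genome, which are core subunits of the respiratory chain and of ATP synthase, on a ribosome of their own. Its ribosomal RNAs come from the mitochondrial genome, but its proteins are encoded in the nucleus, transcribed by RNA polymerase II into capped and polyadenylated mRNAs, translated in the cytosol and imported. Some of these proteins have homologues in the bacterial ribosome, and others are found in the mitochondrial ribosome alone. In leukaemia cells the whole set is known as part of the machinery that supports oxidative metabolism.

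The cells were MOLT-4, an established line from a T-cell acute lymphoblastic leukaemia, transfected with an empty vector (mock) or with NUDT16, a Nudix hydrolase that removes caps from RNA. From each sample, 20 μg of total RNA went into an immunoprecipitation with an antibody against m3G and m7G caps, and the eluate was copied into cDNA, labelled with Cy3 and hybridised to an Agilent 1-colour array. Each group had 3 arrays, spread over 3 slides so that a slide carried the mock and the NUDT16 sample of one replicate number. The comparison asks which capped transcripts lose or gain signal when NUDT16 is supplied. The labels do not say whether replicates came from separate cultures, so p-values measure the spread between these samples. Input RNA, taken ahead of the antibody step, was not analysed here. In RNA from whole cultures, a lower signal from fewer cells and one from less RNA per cell cannot be told apart, and neither can RNA abundance and capping.

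Of the spots for cell RNA, 39.3% to 51.1% lay well above background on the mock arrays. On the NUDT16 arrays the shares were 42.3%, 14.6% and 52.0% for replicates 1, 2 and 3, so NUDT16 replicate 2 stood apart as a dim array. Its 75th percentile, to which all signals are scaled, was 8.66 intensity units, against 92.5 to 358 on the other arrays. The median of the set, and each gene named below for its size or role whose difference moved by at least 1.5 times, is therefore also given without it. Neither of the 2 NUDT16 probes was above background on any array. Whether they lie in the transfected sequence was not tested. Of 2 probes named for the neighbouring pseudogene NUDT16P1, 1 was above background on all 3 NUDT16 arrays and on none of the mock arrays, and the other was above background on none. Of 17 markers of T-lineage leukaemia, 12 were above background on all 6 arrays. The B-cell markers MS4A1 and PAX5 and the epithelial markers CDH1 and EPCAM were above background on none, while CD79A and KRT8 were on all 6.

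All 76 coding genes gave signal. On every mock array, and on NUDT16 replicates 1 and 3, 76 of 76 were well above background. On NUDT16 replicate 2, 63 were, and the other 13 were MRPL1, MRPL38, MRPL39, MRPL40, MRPL42, MRPL43, MRPL44, MRPL50, MRPS7, MRPS23, MRPS25, MRPS27 and MRPS30. On that same array 13.6% of all probes were above background, against 36.1% to 49.6% on the other arrays. These shares count every probe, whereas the 63 counts the brightest probe of each gene. Of the 17765 probes that were tested, 6582 were above background on all 6 arrays. The 13 genes named here entered the tests through the mock group, which alone had all its arrays above background. MRPL23-AS1 and MRPL42P5 were above background on 2 arrays each and could not be tested.

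Signals are given as log2 intensity less the 75th percentile of the same array, so that 0 is the level below which 75% of the spots for cell RNA lie. On this scale the median of the 47 large-subunit genes was 3.80, 4.35 and 3.14 on mock replicates 1, 2 and 3, and 4.06, 3.43 and 3.27 on the NUDT16 arrays of the same numbers. The median of the 29 small-subunit genes was 3.49, 3.17 and 2.43 for mock and 3.84, 2.83 and 2.81 for NUDT16. In both subunits NUDT16 lay above mock within replicates 1 and 3 and below it within replicate 2, and the ranges of the groups overlapped.

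**Figure D1:**
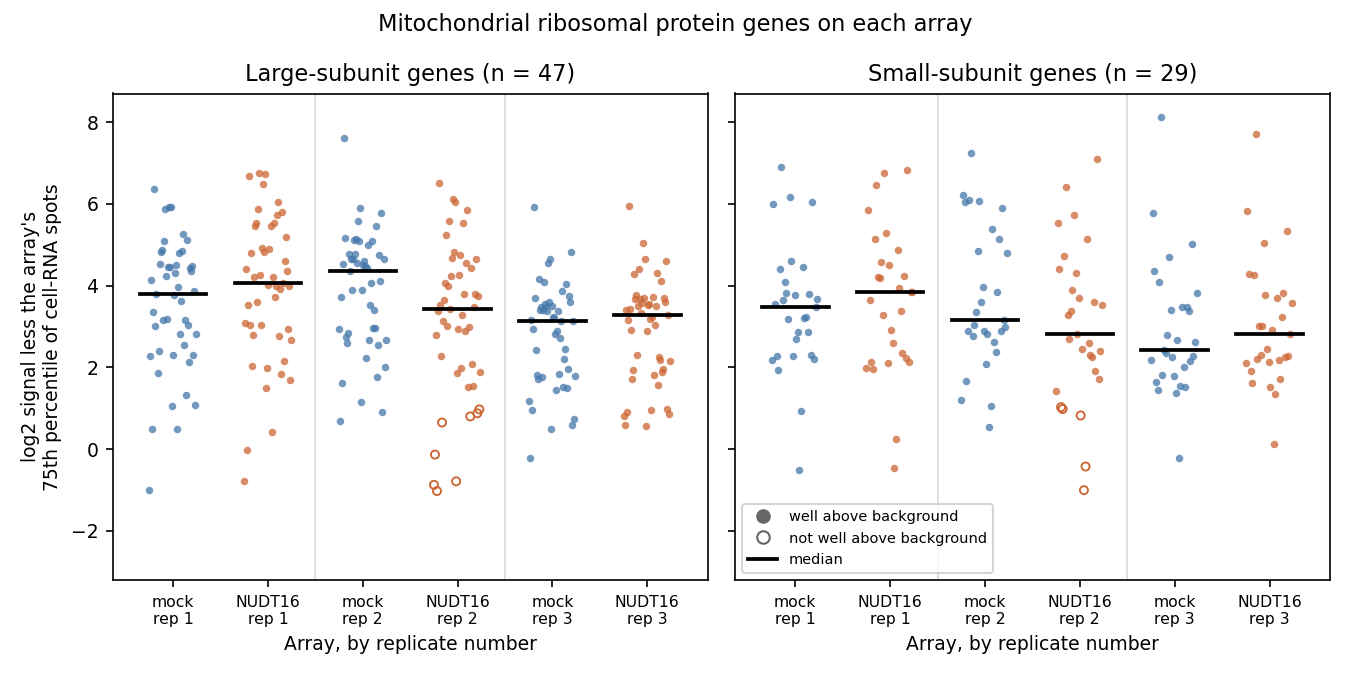
Scaled log2 signal (vertical axis) of each mitochondrial ribosomal protein gene on each of the 6 arrays (horizontal axis), in order of replicate number, for the 47 large-subunit genes on the left and the 29 small-subunit genes on the right. Points are genes, open circles are probes not well above background, and bars are medians; the 13 open circles all lie on NUDT16 replicate 2.

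The genes are scattered over 21 chromosomes, with at most 8 on one. RefSeq promoters (GRCh38.p14, 250 bases before to 50 after the start) matched 68 of the 76 by current symbol. Genes of mitochondrial biogenesis are known to be controlled through sites for ETS factors such as NRF2/GABP, and for NRF1. The ETS core CCGGAAG, on either strand, occurred in 28 of the 68 promoters (41.2%), against 10.67% of all 27305 promoters in the table. The NRF1 motif, GCGCATGC on either strand, occurred in 6 (8.82%, against 3.27%), and the YY1 motif AAGATGGC on either strand in 20 (29.4%, against 3.03%). At least one of the ETS and NRF1 motifs was in 32 (47.1%, against 13.3%), and both were in 2. TATAAA on either strand was in 3 (4.41%, against 11.95%), and CCAAT on either strand in 20 (29.4%, against 35.7%). The first transcribed base in RefSeq was G for 32 of these 68 genes (47.1%, against 33.15% of all promoters). It was A for 28 (41.2%, against 44.3%), C for 8 (11.8%, against 14.99%) and T for 0 (against 7.59%). The 4 stretches below are shown because they carry the ETS or NRF1 motif within 120 bases before the start. Each is the 120 bases that end just before the first transcribed base, read 5′ to 3′ along the gene, with the motif in capitals.
MRPS22, chr3:139343874-139343993, plus strand: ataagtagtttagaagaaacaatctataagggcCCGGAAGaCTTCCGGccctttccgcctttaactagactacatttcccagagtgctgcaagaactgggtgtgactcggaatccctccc
MRPL3, chr3:131502972-131503091, minus strand: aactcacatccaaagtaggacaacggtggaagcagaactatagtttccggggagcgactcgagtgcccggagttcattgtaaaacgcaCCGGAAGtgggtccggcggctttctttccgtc
MRPS26, chr20:3045932-3046051, plus strand: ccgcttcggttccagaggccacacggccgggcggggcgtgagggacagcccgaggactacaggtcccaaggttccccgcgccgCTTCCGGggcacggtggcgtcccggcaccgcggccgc
MRPS18B, chr6:30617720-30617839, plus strand: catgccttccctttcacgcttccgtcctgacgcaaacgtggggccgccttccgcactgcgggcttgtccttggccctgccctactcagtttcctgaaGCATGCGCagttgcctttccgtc
A match is a description of the letters and not of a bound site. In MRPS22 the motif stands on both strands, and in MRPS26 on the reverse strand only. The median difference between NUDT16 and mock (the comparison described next) was 0.00 for the 28 genes with the ETS motif and -0.20 for the 40 without it. With and without the YY1 motif it was -0.21 and 0.03, and with and without the NRF1 motif -0.08 and -0.12. For CCAAT it was -0.15 and -0.06, and for TATAAA -0.22 and -0.11. These contrasts were not tested.

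Some of these genes start close to a neighbour that is read the other way. Another gene started within 1000 bases on the opposite strand, pointing away, for 21 of the 68 (30.9%), against 16.5% of all promoters. One such pair lies within the set itself. MRPL46 and MRPS11, one protein of each subunit, start 320 bases apart. MRPS12 starts 181 bases from SARS2, the mitochondrial seryl-tRNA synthetase, MRPL49 starts 49 bases from FAU, which encodes a cytosolic ribosomal protein as a fusion, and MRPL18 starts 210 bases from TCP1, a chaperonin subunit.

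No mitochondrial ribosomal protein gene differed between NUDT16 and mock beyond the spread between arrays. In a limma fit over all 17765 tested probes, 0 of 76 were called at a Benjamini-Hochberg adjusted p of 0.05, where 0.00563% of all tested probes were. The adjusted p from limma was 0.9996 for every one of them, and the smallest unadjusted p from limma was 0.129 (MRPL44). At an unadjusted p of 0.05 the count was also 0, against 0.0844% of all tested probes. For no gene were the groups free of overlap, either with NUDT16 higher (0.321% of all tested probes) or with NUDT16 lower (1.06%). For a single gene, an exact two-sided permutation test of 3 arrays against 3 cannot go below 0.1.

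The differences were small and went both ways. NUDT16 was higher for 33 genes, where 48.6% of all tested probes were higher, and lower for 43, where 51.4% were lower. They ran from -1.33 for MRPL1 to 0.76 for MRPS26 on the log2 scale, with a median of -0.13 against -0.02 over all tested probes. Among probes above background on all 6 arrays, 31 of the 63 genes of the set were higher, where 63.4% of such probes were, with a median of -0.01 against 0.24. The median standard error was 0.65, with a range from 0.56 to 0.89, and the median size of a difference was 0.33. NUDT16 was lower by at least 2-fold for 2 genes, MRPL1 and MRPL44, where 5.11% of all tested probes were, and higher by as much for 0 (1.9%). The split into higher and lower moves with the scaling. It was 29 and 47 with the percentile over commonly detected probes, 1 and 75 with a median shift, and 0 and 76 without scaling. Relative to the median of all tested probes it stayed at 35 above and 41 below. These settings shift every probe of an array alike, so that split could not change. After quantile normalization it was 32 and 44, with 49 above and 27 below that median, and after normexp background correction 5 and 71, with 12 above and 64 below. Relative to the median of all tested probes, the median of the set was -0.11, and it changed sign to 0.14 after quantile normalization and to 0.17 in the authors' deposited table.

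**Figure D2:**
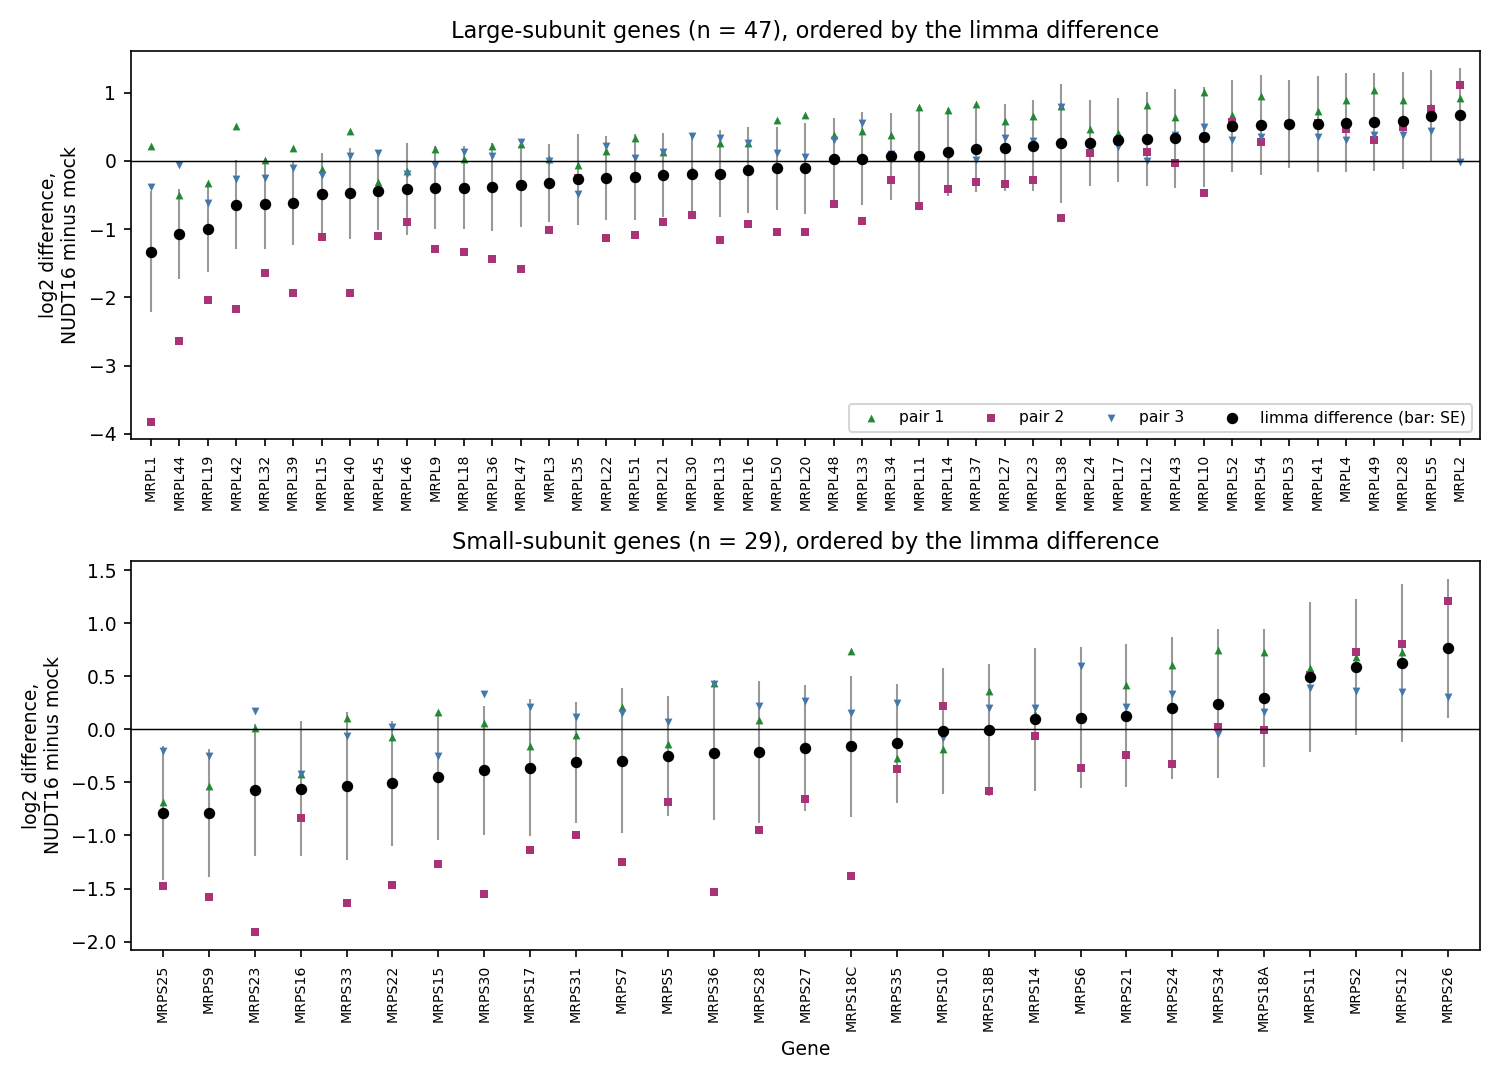
Log2 difference, NUDT16 minus mock (vertical axis), for each large-subunit gene (top) and small-subunit gene (bottom), ordered by the limma difference. Black circles with bars are limma differences with their standard errors, and coloured marks are the differences within the 3 replicate pairs; pair 2 lies below the other pairs for most genes, and lowest for MRPL1.

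Among large-subunit genes on the low side, MRPL19, MRPL32, MRPL15 and MRPL45 had the lowest differences of those above background on all 6 arrays. MRPL19, the homologue of bacterial L19, read 2.30, 3.90 and 3.51 on mock replicates 1, 2 and 3 and 1.98, 1.86 and 2.90 on the NUDT16 arrays. NUDT16 was lower within each pair, but mock replicate 1 lay below NUDT16 replicate 3, so the groups overlapped. The limma difference was -0.99 with a standard error of 0.64. MRPL32, a zinc-binding protein that is cut by the m-AAA protease before assembly, read 3.02, 5.17 and 3.69 for mock and 3.04, 3.53 and 3.43 for NUDT16. Mock replicate 2 stood above all other arrays, and the difference was -0.62 (standard error 0.66). MRPL15, a homologue of bacterial L15, read 4.47, 5.78 and 4.81 against 4.35, 4.66 and 4.61. MRPL45, which docks the ribosome to the inner membrane, read 4.52, 4.76 and 4.17 against 4.22, 3.66 and 4.28. For MRPL15 and MRPL45 as well the mock array of replicate 2 was the highest of the 6, and their limma differences were -0.48 and -0.43. That of MRPL45 was -0.24 without NUDT16 replicate 2.

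MRPL1 and MRPL44 had the lowest differences of the whole set but rested in part on NUDT16 replicate 2, where neither was above background. MRPL1, the homologue of the bacterial stalk protein L1, read -1.01, 2.95 and 1.18 for mock and -0.79, -0.87 and 0.80 for NUDT16. The mock arrays alone spanned the whole range, and the difference was -1.33 with a standard error of 0.89. MRPL44, a large-subunit protein with a ribonuclease III fold, read 0.49, 1.62 and 0.97 against -0.01, -1.03 and 0.91. Its difference of -1.07 (standard error 0.66) became -0.58 without NUDT16 replicate 2, and that of MRPL1 became -1.03. In the blocked fit of replicates 1 and 3, which compares arrays within a slide, they were -0.28 and -0.08.

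The highest differences in the large subunit were those of MRPL2, MRPL55, MRPL28 and MRPL49. MRPL2, whose bacterial homologue lies near the peptidyl transferase centre, read 2.80, 2.68 and 1.83 for mock and 3.73, 3.80 and 1.82 for NUDT16. NUDT16 was higher in replicates 1 and 2 and nearly level with mock in replicate 3, and both replicate 3 arrays were the lowest. The difference was 0.68 with a standard error of 0.68, or of 0.35 with the replicate number as a block. MRPL55, a mitochondria-specific protein, read 5.27, 5.09 and 3.87 against 6.06, 5.84 and 4.31. MRPL28, a homologue of bacterial L28, read 4.85, 4.06 and 3.13 against 5.74, 4.55 and 3.50. MRPL49, also mitochondria-specific, read 3.03, 1.77 and 1.50 against 4.06, 2.07 and 1.87. For these 3 genes NUDT16 was higher within every pair, yet the arrays of replicate 3 lay so far below those of replicate 1 that the groups overlapped. Their differences were 0.66, 0.59 and 0.57, with standard errors of 0.68, 0.71 and 0.72. Without NUDT16 replicate 2 the difference was 0.34 for MRPL2, 0.44 for MRPL55 and 0.87 for MRPL49.

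Genes chosen for their role in the large subunit varied in the same way. MRPL12, the homologue of the bacterial stalk protein that recruits translation factors, read 5.91, 5.91 and 4.66 for mock and 6.73, 6.04 and 4.66 for NUDT16. The pairs differed by 0.82, 0.13 and 0.00, and the limma difference was 0.32 with a standard error of 0.69. MRPL11, at the base of the stalk, read 5.09, 4.66 and 3.41 against 5.88, 3.99 and 3.49. Its limma difference was 0.07, with NUDT16 higher in pair 1 and lower in pair 2. MRPL41, a mitochondria-specific protein, read 4.79, 4.98 and 3.38 against 5.52, 5.54 and 3.72, and its limma difference was 0.55. MRPL36, the small zinc-binding homologue of bacterial L36, read 2.55, 2.96 and 1.51 against 2.77, 1.53 and 1.57, and its limma difference was -0.38. MRPL41 was higher within every pair, and MRPL36 was lower in replicate 2 only. MRPL3, whose probe lies 76279 bases from the nearest NUDT16 probe on chromosome 3 (hg19), read 2.14, 2.55 and 1.96 against 2.16, 1.55 and 1.96. Its pairs 1 and 3 differed by 0.03 and 0.00, and pair 2 by -1.01. Without NUDT16 replicate 2 the differences were 0.20 for MRPL12, 0.30 for MRPL11, 0.24 for MRPL41, -0.17 for MRPL36 and -0.15 for MRPL3.

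In the small subunit the lowest differences among genes above background on all arrays were those of MRPS9, MRPS16, MRPS33 and MRPS22. MRPS9, a homologue of the bacterial protein that reaches the P site, read 2.87, 3.84 and 3.49 for mock and 2.34, 2.26 and 3.24 for NUDT16. NUDT16 was lower within each pair, and the groups overlapped through mock replicate 1 and NUDT16 replicate 3. The difference was -0.79 with a standard error of 0.60. MRPS16, required for small-subunit assembly, read 6.89, 7.24 and 8.12 against 6.47, 6.41 and 7.70. It too was lower within each pair, by 0.42 to 0.83, with a difference of -0.56 and a standard error of 0.63. MRPS33 read 3.55, 6.04 and 4.36 against 3.65, 4.40 and 4.29, and MRPS22 read 2.21, 3.17 and 2.27 against 2.13, 1.70 and 2.29. Both of these encode mitochondria-specific proteins, and for both the pairs 1 and 3 differed by at most 0.10 while pair 2 was lower in NUDT16. Their limma differences were -0.53 and -0.51. Without NUDT16 replicate 2, MRPS16 differed by -0.33 and MRPS22 by -0.34.

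MRPS26, MRPS12, MRPS2 and MRPS11 stood at the other end. MRPS26, a mitochondria-specific protein, read 6.06, 5.89 and 5.03 for mock and 6.83, 7.10 and 5.34 for NUDT16. NUDT16 replicates 1 and 2 lay above all 3 mock arrays, while NUDT16 replicate 3 lay below mock replicates 1 and 2. The difference was 0.76 with a standard error of 0.65, the highest of the 76 genes. Without NUDT16 replicate 2 it was 0.43, below those of MRPL38 (0.91), MRPL10 (0.88) and others. MRPS12, the homologue of the bacterial decoding-centre protein in which streptomycin resistance arises, read 3.78, 2.89 and 1.79 against 4.50, 3.69 and 2.13. MRPS2 read 4.60, 3.59 and 3.40 against 5.28, 4.32 and 3.76, and MRPS11 read 3.64, 2.76 and 1.81 against 4.22, 3.27 and 2.20. These 3 genes, all with bacterial homologues, were higher in NUDT16 within every pair, with limma differences of 0.63, 0.59 and 0.49. Their standard errors without a block were 0.74, 0.64 and 0.70, larger than the differences. With the replicate number as a block they were 0.30, 0.29 and 0.29, smaller than the differences. None of these 3 genes was called in either limma fit.

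MRPS18A, MRPS18B and MRPS18C encode 3 homologues of 1 bacterial protein, S18, and occupy different places in the mitochondrial ribosome. MRPS18A read 3.20, 2.61 and 2.02 for mock and 3.93, 2.60 and 2.18 for NUDT16. MRPS18B read 3.49, 2.99 and 2.62 against 3.85, 2.41 and 2.81. MRPS18C read 4.40, 6.10 and 4.10 against 5.14, 4.72 and 4.25. The 3 paralogues were all higher in NUDT16 in pair 1, by 0.73, 0.36 and 0.74, but in pair 2 they differed by -0.01, -0.58 and -1.38. Their limma differences were 0.29, -0.01 and -0.16, with standard errors of 0.65, 0.62 and 0.67. MRPS30 read -0.51, 0.55 and -0.21 against -0.46, -1.003 and 0.12, with NUDT16 replicate 2 not above background. MRPS27, a pentatricopeptide-repeat protein, read 2.29, 1.68 and 1.65 against 2.13, 1.03 and 1.92, again with that array not above background. For MRPS30 and MRPS27 the limma differences of -0.39 and -0.18 became -0.11 and 0.15 without NUDT16 replicate 2, and those of MRPS18A and MRPS18B became 0.45 and 0.30. Leaving out MRPS18A, MRPS30 and MRPS36, the median difference of the other 26 MRPS genes was -0.17, against -0.18 for all 29.

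The 3 replicate pairs did not go one way. Among the 63 genes above background on all 6 arrays, NUDT16 was higher than mock for 49 in pair 1, where 69.7% of the 6582 such probes were, with a median difference of 0.38 against 0.29. In pair 3 it was higher for 50, where 57.8% of such probes were, with a median of 0.20 against 0.08. In pair 2 it was higher for 18, where 55% of such probes were, with a median of -0.58 against 0.17. Over these 63 genes pair 2 was the pair in which the set lay lowest against its background. The 39 large-subunit genes among them had pair medians of 0.40, -0.63 and 0.20, and the 24 small-subunit genes 0.15, -0.48 and 0.20, in the order of replicates 1, 2 and 3. With the 13 genes that were not above background on NUDT16 replicate 2, the medians over all 76 were 0.35, -0.81 and 0.17.

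Pair 2 holds the dim NUDT16 array, but among genes above background on all arrays the mock array of that pair also stood apart. Over the 63 genes above background on all arrays, the median signal of the set less that of all commonly detected probes was 0.60, 1.23 and 0.50 on mock replicates 1, 2 and 3. On the NUDT16 arrays it was 0.76, 0.60 and 0.59. Mock replicate 2 was the highest of the 6, and NUDT16 replicate 2 lay with the rest. The 39 large-subunit genes showed this, with 1.28 on mock replicate 2 and 0.63 to 1.02 on the other arrays. For the 24 small-subunit genes mock replicate 2 read 0.47, near mock replicate 1 (0.45) and below NUDT16 replicate 1 (0.60). Over all 63 genes the mean was 0.78 ± 0.39 (SD, n = 3) for mock and 0.65 ± 0.09 (SD, n = 3) for NUDT16. The groups thus differed by less than the mock spread. Without NUDT16 replicate 2, the median difference of the 76 genes was 0.00 (-0.07 over all tested probes), and without mock replicate 2 it was 0.16. The part of array quality in pair 2 was not tested.

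In a fit of replicates 1 and 3 alone, blocked by replicate number, the median of the set was 0.27, and 60 of 76 genes were higher in NUDT16, where 49.2% of all tested probes were. That share includes many dim probes. Of probes above background on all 6 arrays, 69.7% were higher in pair 1 and 57.8% in pair 3. For the 63 such genes of the set the shares were 77.8% and 79.4%. None of the 76 was called in that limma fit, either higher (0.805% of all tested probes) or lower (2.13%). The smallest adjusted p was 0.0607, for MRPL38, a mitochondria-specific protein. At an unadjusted p of 0.05, 13 genes were higher (12% of all tested probes) and 0 were lower (9.59%). These 13 were MRPL4, MRPL10, MRPL28, MRPL38, MRPL41, MRPL43, MRPL49, MRPL53, MRPL54, MRPL55, MRPS2, MRPS12 and MRPS26. With all 3 pairs and the block, the limma count was again 0 (0.00563% of all tested probes), the smallest adjusted p was 0.480, and the median standard error was 0.34. In that fit 1 gene, MRPL19, was lower at an unadjusted p of 0.05 (4.5% of all tested probes), and 0 were higher (3.53%).

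Some genes kept one direction through all 3 pairs. Among the 63 genes above background on all arrays, 15 were higher in NUDT16 within every pair, against 30.8% of such probes, and 6 were lower within every pair, against 15%. After the median of the commonly detected probes was taken from each pair, 13 were higher (22.3% of such probes) and 14 were lower (22.3%). Both of these shares are near the background. The 13 were MRPL4, MRPL17, MRPL28, MRPL41, MRPL49, MRPL52, MRPL53, MRPL54, MRPL55, MRPS2, MRPS11, MRPS12 and MRPS26. The 14 were MRPL3, MRPL9, MRPL15, MRPL19, MRPL32, MRPL35, MRPL36, MRPL46, MRPS5, MRPS9, MRPS15, MRPS16, MRPS22 and MRPS33. MRPL53, a mitochondria-specific protein, read 5.92, 5.58 and 4.54 on the mock arrays against 6.49, 6.12 and 5.04 on the NUDT16 arrays.

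For most of the set, replicate number separated the arrays more than transfection did. Both replicate 1 arrays lay above both replicate 3 arrays for 55 of 76 genes, where 46.5% of all tested probes did, and below them for 14 (38.2%). The mean of the replicate 1 arrays less that of the replicate 3 arrays had a median of 0.86 over the set. Over all tested probes this median was 0.14, with opposite signs offsetting each other. Its median size over the set was 0.998, against 0.33 for the difference between NUDT16 and mock. A median size over all tested probes was not computed. The replicate difference was 2.50 for MRPL38, 2.18 for MRPS12, 2.06 for MRPL4 and 2.03 for MRPL11. It was -1.89 for MRPL1, -1.23 for MRPS16 and -1.06 for MRPL19. Deviations of the 76 genes from their group means correlated at 0.88, 0.39 and 0.84 between the arrays of replicates 1, 2 and 3. The slide, the scan and the preparation of a replicate follow the same number and cannot be told apart.

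The genes that were higher and those that were lower differed in the base composition of their probes. The probes of the 76 genes had 21 to 33 G or C among 60 bases. Of 22 genes whose probe had 28 or more, 20 were higher in NUDT16, with a median difference of 0.32. Of 35 genes with 25 to 27, 8 were higher, with a median of -0.22, and of 19 genes with 24 or fewer, 5 were higher, with a median of -0.27. All tested probes showed the same steps, with medians of 0.42, -0.14 and -0.24. The correlation between G+C count and difference was 0.55 over the 76 genes, 0.45 over the large subunit, 0.75 over the small subunit and 0.40 over all tested probes. These correlations run across genes measured on the same 6 arrays. The 5 probe ends below are shown because their genes lie at both ends of the order, and each is the first 30 of the probe's bases, 5′ to 3′, with G and C in capitals.
MRPL2, chr6:43022026-43022085, minus strand: CtGGCCGaaaGattCGGCCaCtaCCCCCCa
MRPS12, chr19:39423438-39423496, plus strand: aGGCaGCCaCtCatGGattCaaGtCCtGGG
MRPL1, chr4:78804582-78804640, plus strand: aattCttGaCtttaCtaGtCCaaaGCaaaG
MRPS9, chr2:105716308-105716367, plus strand: GGGCaGtaCtGtCaGaaatttCtttGaGCt
MRPL19, chr2:75882659-75882718, plus strand: CatCaCCaGaatGGtCtttaatGaGCatGG
Coordinates are those of the array files on hg19 and cover the whole probe. The probes of MRPL2 and MRPS12 had 33 and 31 G or C in all, and those of MRPL1, MRPS9 and MRPL19 had 21, 21 and 27. MRPL55 and MRPL44 also lie near the ends of the order, with differences of 0.66 and -1.07, and are not printed. Their probes both had 16 G or C in the first 30 bases, and 33 and 27 in all. MRPL4 departed from the pattern, with 21 G or C and a difference of 0.56.

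The base-composition pattern differed between arrays of 1 group. The deviation of a gene on an array from its mean over the 6 arrays correlated with G+C count at 0.27, -0.31 and -0.54 over the 76 genes on mock replicates 1, 2 and 3, and at 0.44, 0.48 and -0.58 on the NUDT16 arrays. Replicates 1 and 3 thus had the same sign in both groups, and replicate 2 had opposite signs. Over the 6582 probes above background on all arrays the values were 0.01, -0.26 and -0.24 for mock and 0.12, 0.41 and -0.37 for NUDT16. The correlation between G+C count and the pair difference was 0.47, 0.52 and 0.27 over the 76 genes in pairs 1, 2 and 3. Over all tested probes it was 0.30, 0.39 and 0.02. After each array's smooth trend on G+C count was removed, the correlation over the 76 genes was 0.13, the median difference was -0.10, and 0 genes were called in limma with or without the block. MRPS26 then differed by 0.39, MRPS12 by 0.38, MRPL2 by 0.30 and MRPS9 by -0.58.

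**Figure D3:**
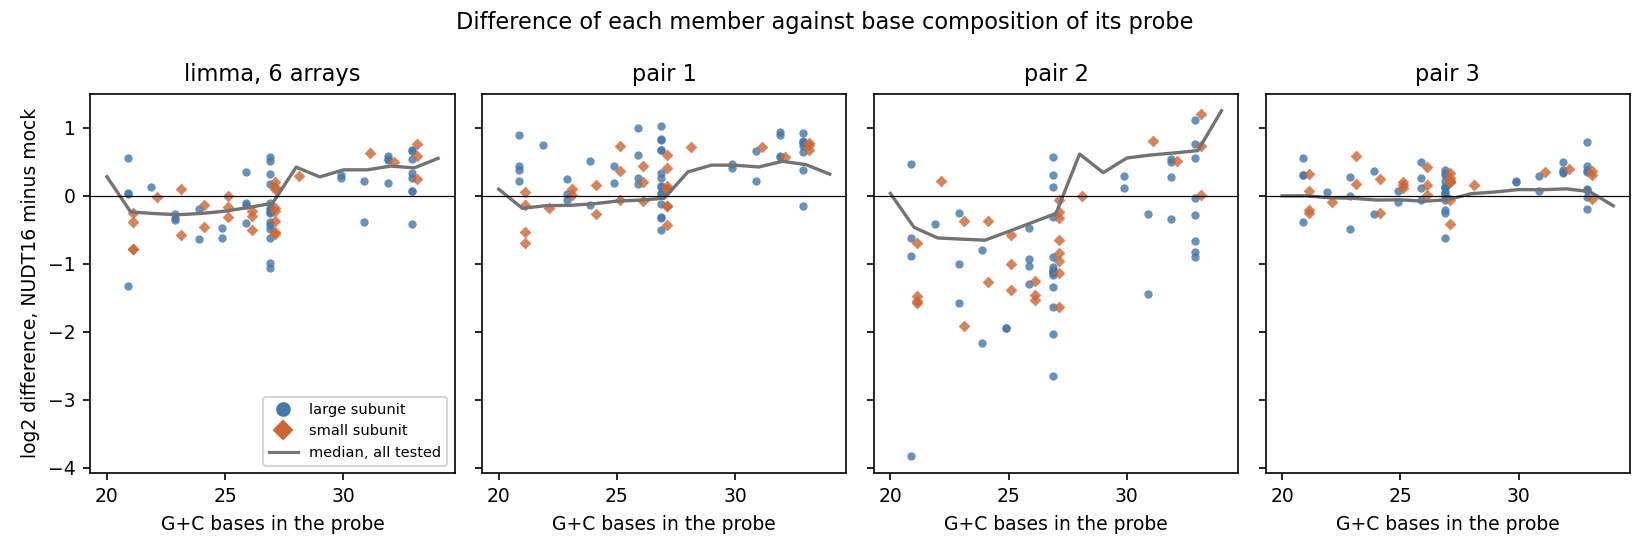
Log2 difference, NUDT16 minus mock (vertical axis), against the number of G or C bases in the 60-base probe (horizontal axis), for the limma difference and within each of the 3 replicate pairs. Circles are large-subunit genes, diamonds are small-subunit genes and the line is the median of all tested probes at that count; genes with 28 or more G or C are mostly above 0 in the limma panel, and the spread is widest in pair 2.

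Probes of one gene mostly gave like values. Of 14 genes with several tested probes, 11 had probes of the same sign, and the median gap between their differences was 0.18. MRPL12 differed by 0.32 on both probes, MRPL37 by 0.18 and 0.17, MRPL53 by 0.54 and 0.55, and MRPL32 by -0.62 and -0.58. The 3 genes whose probes disagreed in sign were MRPL19, MRPL38 and MRPS18B. For MRPL19 the other 2 probes gave -0.05 and 0.08, a gap of up to 1.07 to the brightest, and neither was above background on all arrays. For MRPL10, a second probe gave 1.30 against 0.35, with one value of 4.40 on NUDT16 replicate 2 where the other NUDT16 arrays read 2.75 and 1.24. None of the 91 tested probes of the set was called.

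Proteins with bacterial homologues and mitochondria-specific ones did not separate by their medians. The median difference was -0.10 over 47 genes of the first kind and -0.18 over 29 of the second, with 21 and 12 genes higher in NUDT16. Both kinds had a negative median in pair 2, of -0.69 and -0.90, and positive medians in pairs 1 and 3. Of the first kind 45 were above background on all 6 arrays, and of the second 18.

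Other genes of mitochondrial translation were read from the same fit. Of 6 mitochondrial ribosomal proteins with other names, 0 were called and 2 had a positive difference (AURKAIP1, 0.28, and GADD45GIP1, 0.20), with a median of -0.12. Pair medians were 0.19, -0.90 and 0.02, the same order of signs as in the main set. Of 13 translation factors, 0 were called in the main limma fit, and 11 had a negative difference, where 51.4% of all tested probes did, with a median of -0.65. Of the 13, 4 were above background on all 6 arrays, and the other 9 were above background on 5 and passed the filter through 1 group alone. Such a filter can favour genes that read higher in the group that admits them, so no conclusion is drawn from the count of 11. TUFM, the elongation factor that delivers tRNAs, differed by 0.44, and GFM1, the translocase, by -1.46 with NUDT16 replicate 2 not above background. The probes of these factors had a median of 25 G or C. MTRF1, a release factor homologue, read -0.11, -0.02 and 0.14 for mock and -0.90, -0.78 and -0.74 for NUDT16. The groups did not overlap, as for 1.06% of all tested probes with NUDT16 lower, and the limma difference was -0.81 (adjusted p = 0.9996). It was called on replicates 1 and 3 with the block, as were 2.13% of all tested probes with NUDT16 lower, at -0.83 (limma adjusted p = 0.0499). MTRF1 was not above background on 1 of the 6 arrays and passed the filter through 1 group alone. The same limit therefore holds for its lack of overlap and for its call. Of 22 tested genes of ribosome assembly and mitochondrial RNA metabolism, 0 were called and 12 were higher, with a median of 0.04. POLRMT, the mitochondrial RNA polymerase, differed by 0.82 and LRPPRC, which stabilises mitochondrial mRNAs, by -0.97, with limma adjusted p = 0.9996 for both. LRPPRC was above background on 5 arrays, and its pairs differed by -0.34, -2.28 and -0.30.

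The cytosolic ribosomal protein genes and the nuclear-encoded respiratory chain genes serve as comparisons of abundant housekeeping mRNAs. Of 78 cytosolic ribosomal protein genes tested, all above background on all 6 arrays, 55 were higher in NUDT16 and 0 were called, where 63.4% of such probes were higher. Their median was 0.23, against 0.24 over such probes, with pair medians of 0.35, 0.04 and 0.16. Of 81 respiratory chain genes, 50 were higher, where 48.6% of all tested probes were, and 0 were called in the main limma fit. Their median was 0.18, against -0.02 over all tested probes, with pair medians of 0.50, -0.38 and 0.30. Of these genes 79 were above background on all 6 arrays, where 63.4% of such probes were higher, with a median of 0.24. In the blocked fit of replicates 1 and 3, 1 was called higher (0.805% of all tested probes) and 0 lower (2.13%). Less the median of commonly detected probes, the cytosolic set read 5.99, 6.81 and 5.83 on mock replicates 1, 2 and 3 and 6.08, 6.77 and 5.88 on the NUDT16 arrays. The respiratory chain set read 2.46, 2.74 and 2.03 against 2.75, 2.93 and 2.22. In both of these sets both replicate 2 arrays were the highest of their group. In the mitochondrial ribosomal set, over its 63 genes above background on all arrays, only the mock array of replicate 2 was. Differences between the sets were not tested.

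**Figure D4:**
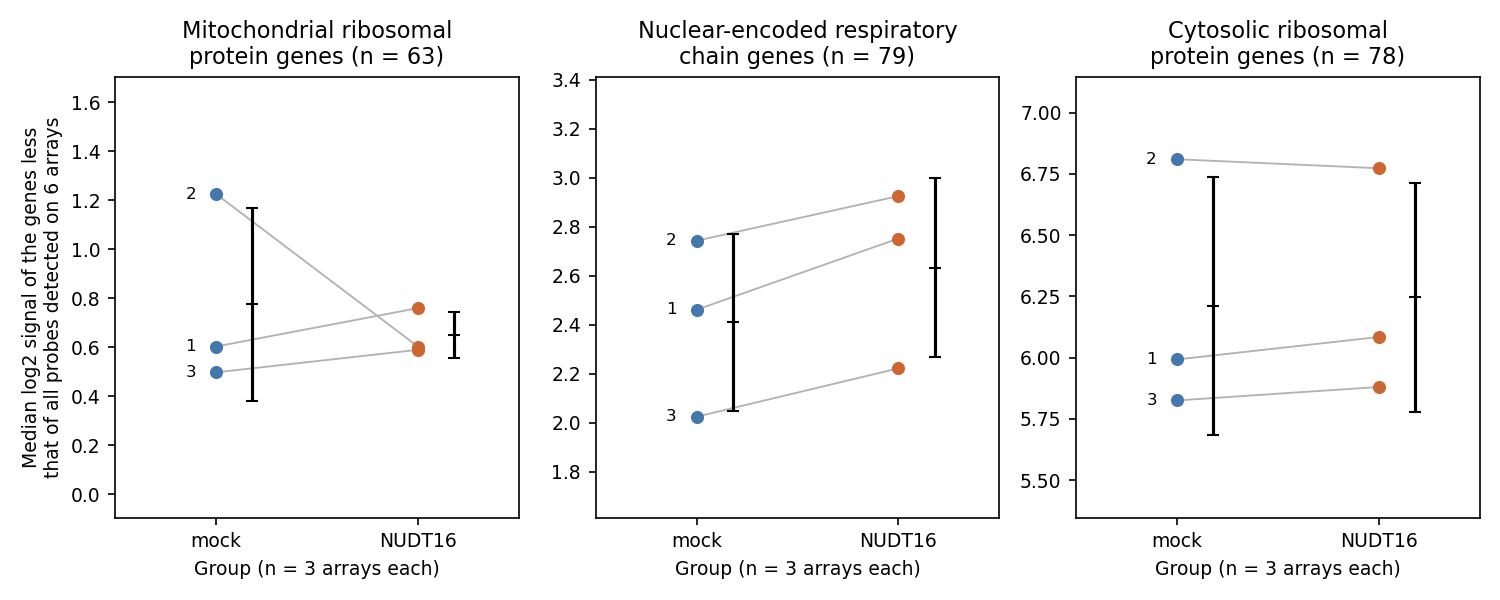
Median log2 signal of 3 gene sets less the median of all probes above background on all 6 arrays (vertical axis, with its own range in each panel but the same length), by group (horizontal axis). Each point is an array, labelled by replicate number and joined to the array of the same number, and bars are mean ± SD (n = 3); in the mitochondrial ribosomal set mock replicate 2 is at 1.23 and all other arrays are between 0.50 and 0.76.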

How the data were processed

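Per the file headers, the array design was Agilent's 039494, spots were quantified by Feature Extraction version 10.7.3.1, and probe positions refer to hg19. The submitters' processing notes name Agilent Feature Extraction and limma, and no other step is given in the sources used here. The deposited scanner values are linear intensity per spot, background subtracted per the file headers, with no normalization between arrays. The values in the table that the authors deposited are log2, made by steps not given in the sources used here, and served as an alternative. On each of the 6 arrays its rank order equalled that of the median spot signal less the median background signal (Spearman's rho 1). The main fit used the scanner's processed signal instead, whose rank order was not compared with that table.

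Control spots and outlier spots were left out. The log2 intensity was shifted by each array's 75th percentile over 58717 spots for cell RNA, and spots of a probe were averaged. Of 50599 probes, 13 without a usable spot were dropped. A probe counted as above background where over 50% of its spots did. Probes entered the test where either group had them above background on each of its 3 arrays, which left 17765 probes (13734 gene names). The test was two-sided, from lmFit and eBayes of limma 3.58.1 (R 4.3.3), without a block. The number of arrays limits the precision. In simulated data for NUDT16 against mock, on 17765 probes, this fit recovered 0% of log2 changes of 1 or 2, 46% of changes of 4 and 86% of changes of 6.

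Members and gene lists were chosen with earlier results of these data known. Genes named with full values were, in each subunit, the 4 largest differences in each direction among genes above background on all arrays, and 14 genes picked for their role. Others were named after their values were seen. The mapping of replicates follows their titles. Arrays with the same number deviated together from their group means (r 0.84, 0.39 and 0.77 for numbers 1, 2 and 3, across 17765 probes), so the numbers, which are also those of the slides, pair the arrays. Alternatives were other background corrections, scalings and filters, the block, replicates 1 and 3 alone, array weights, another variance model, the deposited table, averaging over the probes of a gene, and leaving out each array. The G+C correction and the single pairs were added after the data were seen. RefSeq promoters were matched by symbol. An hg19 annotation was not used here, so which exon or untranslated region a probe lies in is left out. Promoters and probes are printed for a few genes only, and other sequences are not reported here.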

Additional observations from a re-analysis of the deposited data

How the results depend on the processing

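The count of called genes was 0 under every setting tried, including the replicate block and each array left out. Relative to the median of all tested probes, the median difference of the set was -0.11 (large subunit -0.08, small subunit -0.16). The replicate block leaves these values the same by design, since each replicate holds both groups, and it also changed no other call. Leaving out each array in turn gave -0.31 to 0.16 for the set, -0.33 to 0.19 for the large subunit and -0.29 to 0.03 for the small subunit. For the set it was -0.39 with normexp, -0.25 with the filter on all 6 arrays, 0.14 with quantile normalization, 0.17 in the deposited table, 0.055 with array weights and 0.27 on replicates 1 and 3 with the replicate block. Without a filter the median of all probes rose to 0.82, and the set stood at -0.95 relative to it (large subunit -0.92, small subunit -0.99). Pair 2 alone gave -0.72, against 0.32 and 0.19 for pairs 1 and 3. The median of all tested probes was -0.02, and it moved to -0.15 with normexp, -0.26 with quantile normalization, -0.72 with a median shift, -1.10 without scaling and -0.21 in the deposited table.

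Single genes also changed sign relative to that median, all without being called. Without a filter these were MRPL11 (-0.74), MRPL12 (-0.50), MRPL2 (-0.14), MRPL28 (-0.23), MRPL41 (-0.27), MRPL49 (-0.24), MRPL55 (-0.15), MRPS11 (-0.32), MRPS12 (-0.19), MRPS18A (-0.52), MRPS18B (-0.82), MRPS2 (-0.23) and MRPS26 (-0.052). With normexp they were MRPL11 (-0.39), MRPL12 (-0.26), MRPL41 (-0.075), MRPS11 (-0.039), MRPS18A (-0.15), MRPS18B (-0.26) and MRPS30 (0.091). On replicates 1 and 3 with the replicate block they were MRPL3 (0.023), MRPL36 (0.15), MRPS18C (0.46), MRPS27 (0.067), MRPS30 (0.20) and MRPS33 (0.028). With the filter on all 6 arrays they were MRPL11 (-0.17) and MRPS18B (-0.25). Quantile normalization turned MRPS18C (0.035) and MRPS27 (0.10), the deposited table turned MRPS18C (0.11) and MRPS27 (0.11), and array weights turned MRPS27 (0.035). Removing the G+C trend turned MRPL11 (-0.29), with or without the block. Leaving out each array gave ranges across 0 for MRPL11 (-0.56 to 0.55), MRPL12 (-0.061 to 0.89), MRPL49 (-0.041 to 1.06), MRPS18A (-0.13 to 0.66), MRPS18B (-0.34 to 0.37), MRPS18C (-0.48 to 0.45), MRPS27 (-0.32 to 0.23) and MRPS33 (-1.06 to 0.16). The cause of these changes was not tested, apart from the filter, which alters which probes enter the median.

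NUDT16 replicate 2 was a dim array, on which 13 of the 76 genes were not well above background. Small decreases in those 13 genes cannot be resolved there. The other 63 were well above background on it.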
